A study of Homo sapiens with 80 samples.

Results

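The genes described here encode the integrins and laminins of human cells. Which genes of these families are included follows from the symbol alone, with no measured value: every gene in both deposited expression tables whose symbol is ITGA or ITGB with a number or letter, or LAMA, LAMB or LAMC with a digit, leaving out antisense and other suffixed entries. The rule found 38 of the 43388 genes listed. They are 18 integrin alpha subunits, 8 integrin beta subunits, 5 laminin alpha chains, 4 laminin beta chains and 3 laminin gamma chains.

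Integrins are the receptors by which cells hold the extracellular matrix. Each is a pair of 1 alpha and 1 beta subunit, and the alpha subunit largely sets which matrix protein is bound. Laminins are the cross-shaped proteins of basement membranes, each built of 1 alpha, 1 beta and 1 gamma chain. Pluripotent stem cells hold laminin mainly through alpha 6 beta 1 and make laminins that contain the alpha 5 and alpha 1 chains, while the alpha 2 and alpha 4 chains are best known from the basement membrane of muscle and vessels.

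Human pluripotent stem cells were differentiated towards cardiomyocytes, and the class of a differentiation, high or low purity, was set from the share of cardiac troponin T positive cells by flow cytometry on day 16. Per the labels' protocols, cells were plated on Matrigel, a basement membrane extract that itself holds laminin, and received CHIR99021, an activator of WNT signalling, on day 0 in RPMI with B27 lacking insulin. The first experiment used WTC11, a human induced pluripotent stem cell line, with 1 high-purity differentiation at passage 52 and 1 low-purity differentiation at passage 69. WTC11 cells received IWP2, which blocks WNT secretion, on day 2, B27 without insulin on day 4 and B27 with insulin from day 6. Its 56 poly(A) RNA libraries are wells of these cultures. There were 4 wells per class on each of days 0, 2, 4 and 6, 3 high-purity and 4 low-purity wells on day 8, 1 and 4 on day 10, 2 and 4 on day 13, and 3 and 3 on day 16. The second experiment sequenced total RNA of 24 libraries, 1 per culture and stage, from 1 high-purity and 1 low-purity differentiation of each of 3 lines. These were H9, a human embryonic stem cell line (passage 58 high, 55 low), IMR90-4, an induced line (passage 55 high, 75 low), and WTC11 (passage 81 high, 69 low). H9 and IMR90-4 received IWP2 in partly conditioned medium on day 3 and insulin on day 7, so the stages are day 0 and then day 2 or 3, day 4 or 5, and lastly day 6 or 7, the later day being theirs. Because each WTC11 class of the first experiment is 1 differentiation, its p-values measure the spread between wells, and purity class, passage and differentiation cannot be told apart.

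Between 6579715 and 18143597 reads were assigned to genes in the WTC11 well libraries and between 17990882 and 40357968 in the 24 libraries of 3 lines. Levels are TPM, transcript shares scaled for gene length and library total, so that genes can also be compared. Of the 38 genes, 17 were at 1 TPM or more in every well library and 4 (LAMB4, ITGAL, ITGAM and ITGAX, the last 3 alpha subunits of leukocytes) were under 1 TPM in every library of both experiments. In the WTC11 wells a gene was called where limma, on log2 of scaled TPM + 1, gave a Benjamini-Hochberg adjusted p under 0.05 over all 25664 genes tested and a log2 fold change of at least 1 in size. The filter, 1 TPM in at least 3 libraries, kept 32 of the 38 genes. A gene that is low in 1 class can pass it through the other class, so counts over these 32 are not counts over all members. In bulk RNA, fewer cells of a type and less RNA per cell cannot be told apart.

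Both WTC11 cultures began with the same leading subunits and ended with different ones. On day 0 ITGA6 transcripts were 57.1% ± 0.915 (SD, n = 4) of all integrin alpha TPM in the high-purity wells and 56.2% ± 1.24 (n = 4) in the low-purity wells. By day 16 that share was 6.94% ± 0.154 (n = 3) and 2.45% ± 0.224 (n = 3). The leading alpha subunit on day 16 was ITGAV in the high-purity wells, at 45.1% ± 2.15, and ITGA3 in the low-purity wells, at 27.2% ± 1.14, with ITGA1 at 26.7% ± 0.15 and, in well 3, above ITGA3 (247 and 239 TPM). Among the laminin alpha chains LAMA1 held 53.9% ± 2.14 and 51.9% ± 1.91 of the TPM on day 0 and LAMA5 40.8% ± 2.42 and 40.4% ± 1.74. By day 16 the leading laminin alpha chain was LAMA4 in the high-purity wells, at 40.1% ± 0.309, and LAMA5 in the low-purity wells, at 58.6% ± 8.25. The summed integrin alpha level was 259 TPM on day 0 and 280 TPM on day 16 in the high-purity wells (means), against 210 and 950 TPM in the low-purity wells. The summed laminin alpha level ended at 249 TPM in the high-purity wells and 218 TPM in the low-purity wells.

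**Figure D1:**
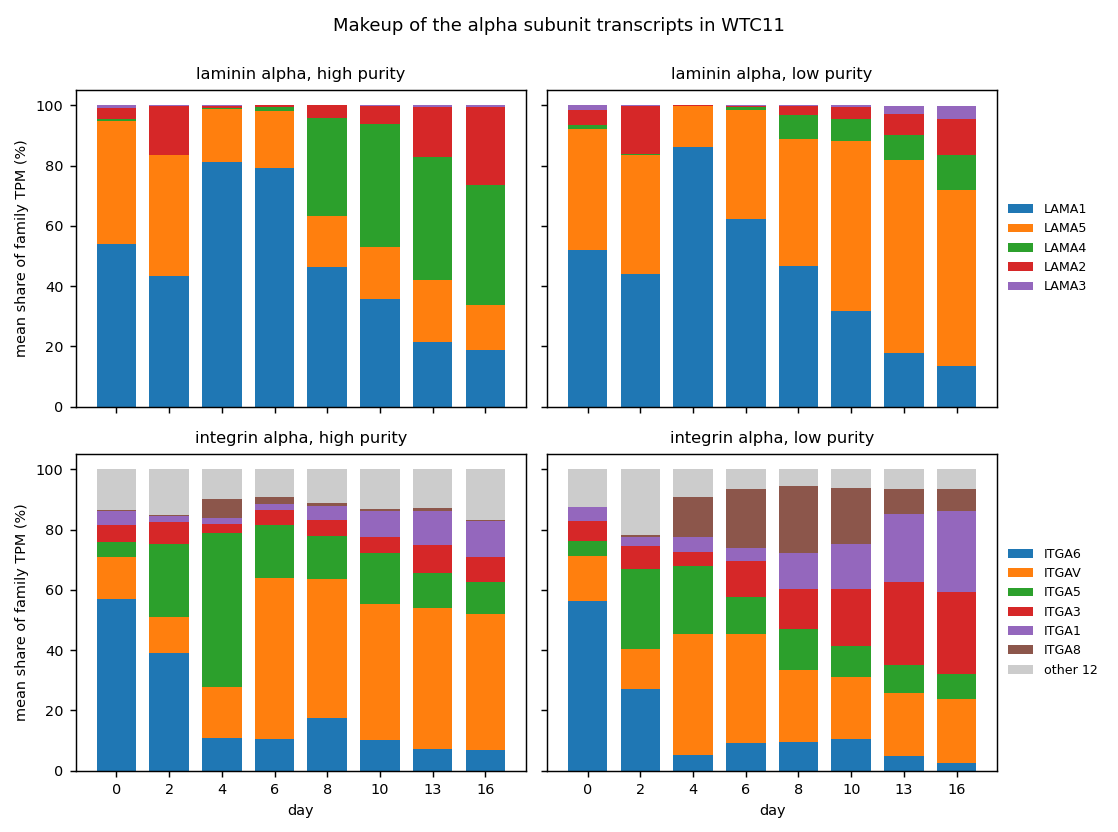
Mean share (%) of each gene in the summed TPM of the 5 laminin alpha chains (top) and the 18 integrin alpha subunits (bottom) by day in WTC11, for high-purity (left) and low-purity (right) wells; grey stacks the other 12 integrin alpha subunits. ITGA6 leads both cultures on day 0, and on day 16 LAMA4 and LAMA5 lead the laminin chains of the high-purity and low-purity wells.

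Purity classes of WTC11 differed little on day 0 and widely on day 16. No member was called on day 0, when 0.242% of all tested genes were called higher and 0.826% lower in the high-purity wells. Of the 32 members, 12 had an unadjusted p under 0.05, against 6591 of 25664 genes. On reads recovered from the TPM edgeR called 2 members, and its share of all genes was not counted. On day 2, 2 members were called higher (all genes 2.25%) and 1 lower (3.07%). On day 4 the counts were 4 higher (3.62%) and 2 lower (4.22%). Day 6 had 3 higher (3.61%) and 4 lower (5.19%).

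From day 6 on, more members were called lower than higher in the high-purity wells. The same direction held for all tested genes on every day tested, so it is not particular to the members. There were 3 higher (all genes 4.66%) and 7 lower (7.5%) on day 8, 5 higher (4.55%) and 9 lower (6.23%) on day 13, and 6 higher (5.76%) and 11 lower (7.65%) on day 16. Without scaling beyond TPM the day 16 split was 4 higher and 13 lower. The median log2 fold change of the members, high minus low, was 0.13 on day 0 (all genes 0.01), 0.07 on day 8 (all genes -0.03) and -0.31 on day 16 (all genes 0.00). On day 16 all high-purity wells lay above all low-purity wells for 9 members and below them for 16, together 78.1% of the members tested, where 47.6% of all tested genes did not overlap. On day 0 this held for 34.4% of members, all 11 of them higher in the high-purity wells, against 21.8% of all genes. For all genes the shares above and below were not counted apart. The direction of these member splits therefore cannot be judged against all genes. Without scaling beyond TPM the median log2 fold change of all genes was itself 0.047 on day 0 and -0.118 on day 16.

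**Figure D2:**
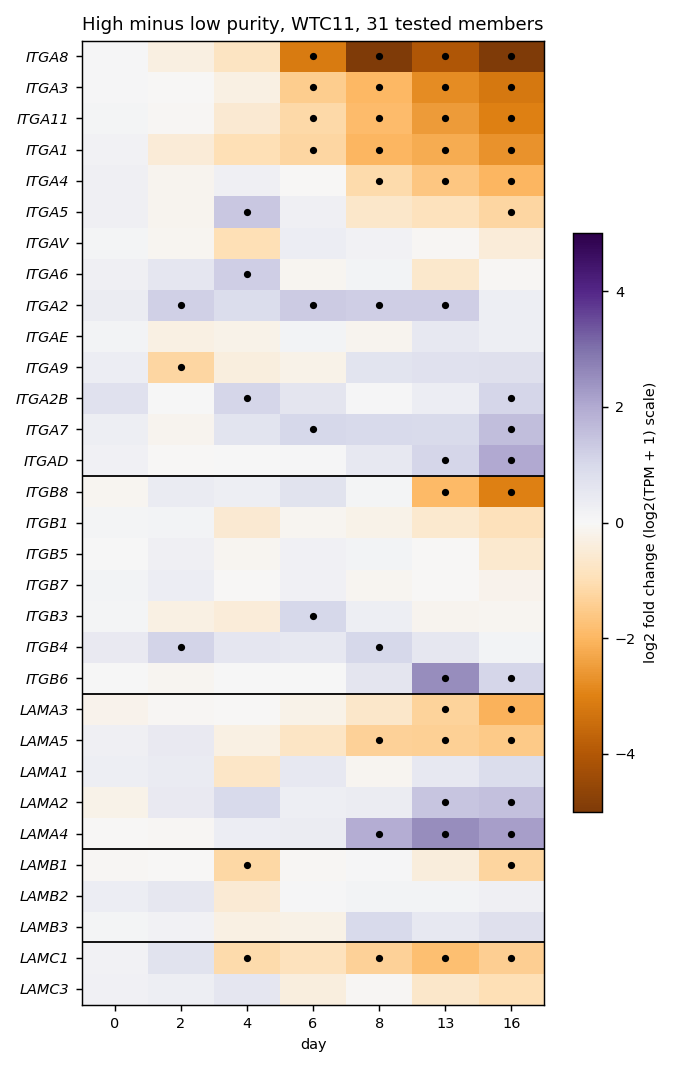
Log2 fold change, high minus low purity, of 31 of the 32 tested members (rows, in blocks of integrin alpha, integrin beta, laminin alpha, laminin beta and laminin gamma) on the 7 days tested in WTC11 (columns); purple is higher and orange lower in the high-purity wells, and dots mark calls. Day 0 holds no dot and day 16 holds 17, of which 11 are orange.

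The difference between classes in the change since day 0 was also tested. From day 0 to day 4, 3 members rose more in the high-purity wells (all genes 3.26%) and 5 rose less or fell more (3.74%). From day 0 to day 16 the counts were 5 (5.46%) and 13 (7.99%), with a member median of -0.44 (all genes 0.00). Of these differences on day 16, ITGA8 had the lowest, -5.07 on the log2(TPM + 1) scale, a value that depends on the pseudocount because its low-purity wells held 0 reads on day 0. LAMA4 had the highest, at 2.25.

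On day 0 the 6 pluripotency markers summed to 5539 to 5727 TPM in the high-purity wells and 5123 to 5495 TPM in the low-purity wells, and each was at 1 TPM or more in every well. Marker genes of other cell types also differed between the classes. On day 4 the 7 cardiomyocyte markers summed to 117 to 154 TPM in the high-purity wells and 1224 to 1368 TPM in the low-purity wells, and the pluripotency markers to 1979 to 2641 TPM and 1169 to 1297 TPM. On day 16 the summed level of 7 fibroblast or stromal markers was 574 to 690 TPM in the high-purity wells and 9669 to 13143 TPM in the low-purity wells, with 6 of the 7 called lower. The 5 epicardial markers summed to 9.11 to 12.1 TPM against 221 to 302 TPM, with 5 of 5 called lower, and 3 of 3 tested smooth muscle markers were called lower. The cardiomyocyte markers summed to 10827 to 12841 TPM against 3857 to 5752 TPM, with 5 of 7 called higher. Of 6 endothelial markers 4 were called higher and 1 lower. The 6 epithelium or amnion markers summed to 1337 to 1740 TPM against 4489 to 4851 TPM, with 3 called higher and 2 lower, and the 5 endoderm markers to 74.2 to 476 TPM against 464 to 1244 TPM, with 2 called higher and 1 lower. The part of these cell types in the differences of integrins and laminins was not tested. Leukocyte markers summed to at most 22.0 TPM and megakaryocyte markers to at most 16.8 TPM in any well.

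Several integrin alpha subunits changed between day 0 and day 6. ITGA6, the laminin-binding alpha 6 subunit (chr2:172427336-172506459, GRCh38), was at 149, 146, 153 and 145 TPM in the high-purity wells of day 0 and at 120, 120, 116 and 115 TPM in the low-purity wells. On day 4 it was at 39.1, 34.2, 41.1 and 32.8 TPM and at 14.6, 15.6, 16.0 and 13.7 TPM. The classes did not overlap on either day, and the high-purity wells were the higher on both. The difference was 0.26 ± 0.09 (log2 ± SE; limma, adjusted p = 0.0353) on day 0, under the fold threshold, and 1.24 ± 0.09 (adjusted p = 6.17e-16) on day 4. ITGA6 fell from day 2 to day 4 in both, by 1.5 and 2.19 on the log2 scale. In the low-purity wells it then rose by 1.37 from day 4 to day 6, reached 83.3, 86.8, 83.5 and 104 TPM on day 10, when the single high-purity well was at 31.5 TPM, and fell to 26.8, 22.8 and 20.5 TPM on day 16. The high-purity wells were at 67.6, 60.2 and 55.6 TPM on day 8 and at 18.0, 21.1 and 19.1 TPM on day 16.

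ITGA5, the fibronectin receptor's alpha 5 subunit (chr12:54395261-54419266), peaked in the high-purity wells as ITGA6 fell. It stood at 15.3, 13.0, 13.8 and 11.5 TPM on day 0, at 63.5, 59.1, 57.3 and 60.1 TPM on day 2, and at 184, 149, 193 and 176 TPM on day 4, when it made up 51.1% ± 0.632 of integrin alpha TPM. The low-purity wells were at 11.4, 9.03, 11.1 and 10.5 TPM on day 0, 72.4, 67.2, 65.2 and 69.2 TPM on day 2, and 60.5, 66.0, 74.0 and 62.9 TPM on day 4. Both cultures rose steeply from day 0 to day 2, by 2.06 ± 0.07 and 2.45 on the log2 scale, and the high-purity wells alone were called for a further rise, of 1.41, from day 2 to day 4. The classes differed by 1.4 ± 0.07 on day 4 (limma, adjusted p = 3.25e-21), and the change since day 0 differed by 1.14. On day 6 the wells lay at 62.5 to 75.8 TPM and 52.5 to 63.1 TPM. By day 16 the order was the other way, with 27.4, 34.5 and 26.4 TPM in the high-purity wells and 86.6, 79.7 and 77.1 TPM in the low-purity wells (-1.23 ± 0.08, adjusted p = 2.65e-17).

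ITGAV, the alpha V subunit that binds vitronectin and other RGD proteins (chr2:186590056-186680901), became the leading alpha subunit on day 4 in the low-purity wells and on day 6 in the high-purity wells. On day 4 it was at 65.1, 46.3, 56.9 and 66.1 TPM in the high-purity wells and at 124, 112, 113 and 117 TPM in the low-purity wells, 17.1% ± 1.91 and 40.1% ± 2.29 of integrin alpha TPM. The classes did not overlap, and the difference of -0.98 was just under the fold threshold, while the change since day 0 was called at -1.08. From day 4 to day 6 it rose by 1.73 in the high-purity wells, to 223, 219, 231 and 160 TPM, against 177, 176, 164 and 140 TPM in the low-purity wells. These ranges overlap. On day 16 it was at 108, 140 and 131 TPM against 180, 205 and 217 TPM, a difference of -0.45.

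ITGA9, the alpha 9 subunit that binds tenascin and other ligands (chr3:37452141-37823507), had its highest well value on day 2, in the low-purity wells. In the low-purity wells it was at 2.39, 2.42, 2.26 and 2.2 TPM on day 0, at 32.2, 31.4, 29.3 and 31.8 TPM on day 2, and at 9.68, 10.5, 10.4 and 8.52 TPM on day 4. In the high-purity wells it was at 3.47, 3.34, 3.4 and 3.11 TPM on day 0 and at 15.5, 10.0, 9.59 and 14.2 TPM on day 2. The classes did not overlap on day 2 and differed by -1.23 ± 0.11 (limma, adjusted p = 7.75e-13), the only member called lower that day. The 2 members called higher on day 2 were low in level: ITGB4, the beta 4 subunit of hemidesmosomes, at means of 2.56 and 0.671 TPM (1.12 ± 0.16), and ITGA2, a collagen-binding subunit, at 4.38 and 1.48 TPM (1.18 ± 0.14). ITGA4, the alpha 4 subunit that binds VCAM1 and fibronectin, fell in both cultures from day 2 to day 4, from means of 4.3 to 0.463 TPM and from 5.13 to 0.228 TPM.

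**Figure D3:**
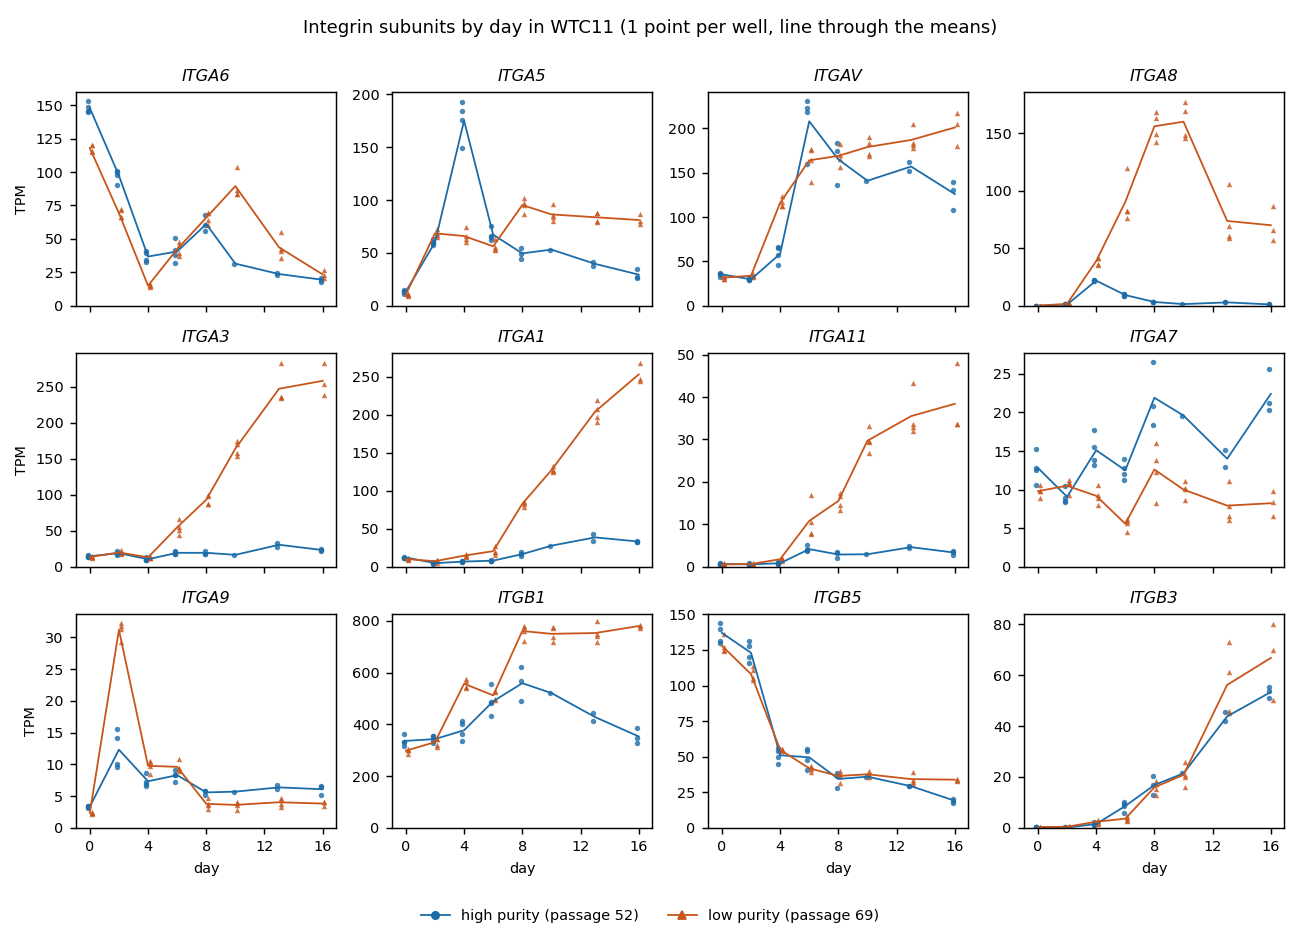
TPM of 12 integrin subunits by day in WTC11, 1 point per well, with lines through the means of the high-purity (blue circles) and low-purity (orange triangles) wells. ITGA5 peaks on day 4 in the high-purity wells, and ITGA8, ITGA3, ITGA1 and ITGA11 are higher in the low-purity wells from day 6 on.

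Other alpha subunits rose in the low-purity wells and were lower in the high-purity wells from day 6 on. The first was ITGA8, the alpha 8 subunit that pairs with beta 1 and binds nephronectin (chr10:15513954-15719922). All 4 low-purity wells of day 0 held 0 reads of it, and the day 2 mean of 1.65 TPM and the day 4 mean of 38.8 TPM were at least 10.7-fold and at least 252-fold higher than a floor of 3 reads per library. On day 4 it was at 22.4, 21.4, 22.0 and 21.4 TPM in the high-purity wells and 36.2, 41.6, 41.8 and 35.6 TPM in the low-purity wells. After that the cultures parted: the high-purity wells held 10.0, 8.72, 10.2 and 8.13 TPM on day 6 and 3.53, 3.25 and 3.02 TPM on day 8, while the low-purity wells held 82.4, 76.4, 82.0 and 120 TPM and then 168, 149, 142 and 163 TPM. On day 13 it was at 2.94 and 2.91 TPM against 106, 61.0, 59.0 and 69.4 TPM, and on day 16 at 1.17, 1.15 and 0.909 TPM against 86.4, 57.5 and 66.1 TPM. It had the largest fold change of any tested member on days 6, 8, 13 and 16: -3.14 ± 0.14, -4.99 ± 0.15, -4.06 ± 0.17 and -5.0 ± 0.16 in that order (limma, adjusted p = 4.94e-28 on day 16).

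ITGA3, a laminin-binding subunit best known from epithelia (chr17:50056110-50090481), rose later and kept its level to the end. It was at 21.3, 18.0, 17.7 and 20.1 TPM in the high-purity wells of day 6 and at 51.5, 44.7, 55.8 and 66.9 TPM in the low-purity wells. On day 8 the values were 21.8, 18.1 and 18.0 TPM against 99.1, 87.6, 86.6 and 98.6 TPM. On day 13 they were 28.0 and 33.1 TPM against 283, 234, 236 and 235 TPM. On these days the high-purity wells thus lay between 17.7 and 33.1 TPM while the low-purity wells were higher on each later day. On day 16 the wells stood at 22.9, 25.0 and 21.3 TPM against 283, 253 and 239 TPM, a difference of -3.22 ± 0.12 (limma, adjusted p = 4.68e-26).

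ITGA1 and ITGA11, both collagen-binding subunits, were also lower in the high-purity wells. ITGA1 (chr5:52787916-52959209) was at 7.95, 7.34, 8.83 and 7.93 TPM in the high-purity wells of day 6 against 20, 19.3, 15.5 and 27.3 TPM in the low-purity wells. By day 8 it was at 16.2, 19.1 and 14.6 TPM against 85.4, 82.4, 85.0 and 78.2 TPM, and by day 16 at 32.7, 33.8 and 32.7 TPM against 268, 244 and 247 TPM (-2.69 ± 0.13, limma, adjusted p = 2.65e-21). It rose in both cultures from day 6 to day 8, by 1.19 and 1.98, and again from day 8 to day 16, by 1.17 and 1.83; without scaling beyond TPM both high-purity values were 0.96 and not called. The gene PELO lies within ITGA1 on the same strand, so some of these reads could be from PELO. ITGA11, known from mesenchymal cells (chr15:68296532-68432163), was at 4.31 and 4.91 TPM in the high-purity wells of day 13 and 43.4, 33.6, 32.1 and 33.0 TPM in the low-purity wells, and at 2.78, 3.81 and 3.36 TPM against 48.0, 33.7 and 33.6 TPM on day 16 (-3.02 ± 0.18, adjusted p = 7.59e-19). On day 6 it was called at -1.14 ± 0.15, and without low-purity well 4 of that day the value was -0.90 and no longer called. ITGA4 was called lower in the high-purity wells on days 8, 13 and 16, at -1.12 ± 0.19, -1.63 ± 0.22 and -2.01 ± 0.2; without low-purity well 1 the day 8 value was -0.90 and was not called.

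Few alpha subunits were higher in the high-purity wells. ITGA7, the laminin-binding alpha 7 subunit of striated muscle (chr12:55684568-55716400), was at 14.0, 12.8, 11.3 and 12.0 TPM in the high-purity wells of day 6 against 6.18, 5.99, 5.67 and 4.45 TPM in the low-purity wells, and at 20.3, 25.6 and 21.2 TPM against 6.6, 9.77 and 8.33 TPM on day 16. Its difference was 1.57 ± 0.15 on day 16 (limma, adjusted p = 5.38e-12) and 1.02 ± 0.13 on day 6; the day 6 value was 0.94 without low-purity well 4, 1.00 without high-purity well 1, and in both cases not called. ITGA7 overlaps METTL7B and BLOC1S1 on the opposite strand; the libraries kept strand, and whether the counting used it is not given in the sources used here. ITGA2 was called higher on days 2, 6, 8 and 13, with a mean of at most 8.81 TPM. The 2 high-purity wells of day 13 held 7.14 and 10.5 TPM of it against 3.05 to 4.37 TPM, and without high-purity well 3 the difference was 0.99 and not called. ITGA2B, the alpha IIb subunit of platelets, was called on days 4 and 16 at 1.06 ± 0.18 and 1.07 ± 0.21, with means of 3.26 and 0.981 TPM and of 3.58 and 1.46 TPM; the day 4 call was lost without high-purity well 3 or 4 or low-purity well 4 (0.95 to 1.00) and the day 16 call without high-purity well 2 (0.94) or without scaling beyond TPM (0.88). ITGAD, a leukocyte subunit, was at 4.45, 4.16 and 4.68 TPM on day 16 against 0.178, 0.86 and 0.768 TPM. ITGAE, the alpha E subunit of lymphocytes, was called on no day and stayed between 1.23 and 3.86 TPM in the high-purity wells.

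ITGB1, the beta 1 subunit shared by most of these receptors (chr10:32900318-32958230), was the most abundant member of its family in every group. It made up 70.2% ± 0.571 and 69.1% ± 1.45 of integrin beta TPM on day 0 and 81.9% ± 0.429 and 86.7% ± 1.09 on day 16. The high-purity wells held 316, 331, 363 and 333 TPM on day 0, 400, 334, 363 and 411 TPM on day 4, 566, 621 and 491 TPM on day 8, and 329, 384 and 346 TPM on day 16. The low-purity wells held 299, 305, 285 and 301 TPM on day 0, 577, 566, 541 and 544 TPM on day 4, 723, 780, 762 and 778 TPM on day 8, and 773, 784 and 782 TPM on day 16. High-purity wells thus returned to about their day 0 level and low-purity wells did not. The day 16 difference was -0.92 ± 0.05 (limma, adjusted p = 2.05e-19), under the fold threshold, while the change since day 0 was called at -1.03; with another scaling, the median-ratio size factors of DESeq2, that value was -0.98 and not called.

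ITGB5, a beta subunit that pairs with alpha V, was the second beta subunit of the early days and fell in both cultures. It was at 130, 131, 144 and 140 TPM in the high-purity wells of day 0 against 124, 127, 136 and 125 TPM, and at 17.5, 20.5 and 19.0 TPM on day 16 against 34.5, 33.7 and 33.2 TPM. Its share of beta TPM fell from 28.6% ± 0.58 to 4.41% ± 0.0907 and from 29.8% ± 1.53 to 3.76% ± 0.147. The step from day 2 to day 4 was called in both, at -1.38 and -1.02; the low-purity value was -0.99 without low-purity well 2 of day 2, -0.97 without scaling beyond TPM, and in both cases not called. ITGB3, the other main partner of alpha V and the beta subunit of platelet integrin, rose in both. Its wells were all under 1 TPM on day 0, at 10.3, 9.48, 5.88 and 8.5 TPM in the high-purity wells of day 6 against 3.24, 3.93, 2.46 and 4.6 TPM, and at 53.9, 55.5 and 51.0 TPM on day 16 against 50.3, 70.1 and 80.1 TPM. The classes did not overlap on day 6 and overlapped on day 16. The day 6 call of 1.03 ± 0.17 (limma, adjusted p = 2.05e-06) was between 0.92 and 0.99 and not called without high-purity well 1, high-purity well 2, low-purity well 1 or low-purity well 3.

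ITGB8, the beta subunit of the receptor that activates TGF beta, was at 14.2, 13.2 and 10.7 TPM in the high-purity wells of day 8 and at 15.1, 11.8, 12.2 and 15.7 TPM in the low-purity wells, which overlap. By day 16 it was at 0.45, 1.8 and 1.03 TPM against 19.5, 13.8 and 15.3 TPM, a difference of -3.01 ± 0.16 (limma, adjusted p = 8.19e-20). The high-purity wells had fallen by 2.69 on the log2 scale since day 8, while its step over these days was not called in the low-purity wells. ITGB6, an epithelial partner of alpha V, was at 5.31 and 7.74 TPM in the high-purity wells of day 13 against 0.272, 0.726, 0.365 and 0.348 TPM (2.53 ± 0.16). On day 16 it was at 1.55, 2.63 and 2.18 TPM against 0.464, 1.1 and 0.463 TPM (1.08 ± 0.15), a call that was lost at 0.99 to 1.00 without high-purity well 2, low-purity well 1 or low-purity well 3, and at 0.90 without scaling beyond TPM. It held 0 reads in every well of both classes on days 0 and 4. ITGB4 was called again on day 8, at 1.03 ± 0.17, with means of 1.54 and 0.295 TPM; the value was 0.84 without high-purity well 1, 0.95 without low-purity well 3 and 0.94 without scaling beyond TPM, and none of these was called. ITGB7, a lymphocyte subunit, was called on no day, and ITGB2, the leukocyte beta subunit, was under the filter.

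The laminin alpha chains changed leader as well. LAMA1, the chain of embryonic basement membranes (chr18:6941742-7117797), was at 31.3, 30.7, 33.8 and 27.6 TPM on day 0 in the high-purity wells and at 23.6, 21.2, 25.2 and 24.5 TPM in the low-purity wells. It rose from day 2 to day 4 by 2.3 ± 0.09 and by 3.45, to 196, 150, 183 and 183 TPM against 301, 309, 301 and 284 TPM. On day 4 it made up 81.1% ± 1.15 and 86.1% ± 0.56 of laminin alpha TPM. The order then turned, with 246, 242, 245 and 193 TPM in the high-purity wells of day 6 against 166, 167, 165 and 147 TPM. No overlap was seen on either day, and on neither day did the difference reach the fold threshold (-0.74 on day 4). On day 16 it was at 41.1, 50.7 and 48.1 TPM against 25.2, 34.1 and 29 TPM (0.87 ± 0.1, limma, adjusted p = 9.56e-10).

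LAMA5, the chain of the laminins that pluripotent cells make and later of epithelia (chr20:62309065-62367312), started at 22.4 to 23.9 TPM in the high-purity wells and 18.0 to 18.9 TPM in the low-purity wells. On day 8 it was at 40.5, 38.4 and 28.9 TPM against 104, 109, 103 and 119 TPM, on day 13 at 47.5 and 60.6 TPM against 172, 173, 146 and 157 TPM, and on day 16 at 33.7, 42.1 and 36.1 TPM against 141, 125 and 116 TPM. The groups stood apart on each of these days, by -1.35 ± 0.07, -1.38 ± 0.08 and -1.53 ± 0.08 (limma, adjusted p = 1.25e-20 on day 16). LAMA3, an epithelial chain, was at 0.933, 1.91 and 1.54 TPM on day 16 against 10.4, 10.6 and 9.02 TPM (-2.08 ± 0.12, adjusted p = 9.84e-19), having risen by 2.8 in the low-purity wells since day 8. LAMA5 overlaps ADRM1 and an antisense gene on the opposite strand.

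LAMA4 and LAMA2 were the laminin chains called higher in the high-purity wells on day 16. LAMA4, a chain of vessels and of heart muscle (chr6:112107931-112254985), was under 1 TPM in every well up to day 4. On day 8 it was at 58.9, 76.1 and 67.3 TPM in the high-purity wells against 14.5, 27.4, 23.7 and 15.4 TPM, on day 13 at 112 and 102 TPM against 13.4, 31.5, 24.4 and 15.9 TPM, and on day 16 at 90.6, 110 and 99.2 TPM against 14.0, 31.6 and 31.4 TPM. On none of these days did the classes overlap. The differences were 1.95 ± 0.31, 2.53 ± 0.35 and 2.22 ± 0.33 (limma, adjusted p = 2.01e-07 on day 16). Both cultures rose from day 6 to day 8, by 4.06 ± 0.31 and 2.49.

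LAMA2, the chain of mature muscle (chr6:128883138-129516566), rose at 2 separate times. It was at 11.5, 13.7, 11.9 and 11.3 TPM in the high-purity wells of day 2 and 8.92, 9.42, 9.34 and 8.63 TPM in the low-purity wells, up from day 0 means of 1.92 and 2.25 TPM. By day 4 it had fallen back to means of 2.05 and 0.528 TPM, by 2.2 and 2.74 on the log2 scale. The late rise began from day 6 to day 8, at 2.1 and 2.03, and by day 13 it was at 44.0 and 41.4 TPM against 13.2, 23.4, 19.2 and 15.0 TPM. On day 16 it was at 59.1, 68.0 and 64.7 TPM against 16.4, 30.4 and 30.6 TPM, with no overlap (1.55 ± 0.18, limma, adjusted p = 1.75e-09).

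**Figure D4:**
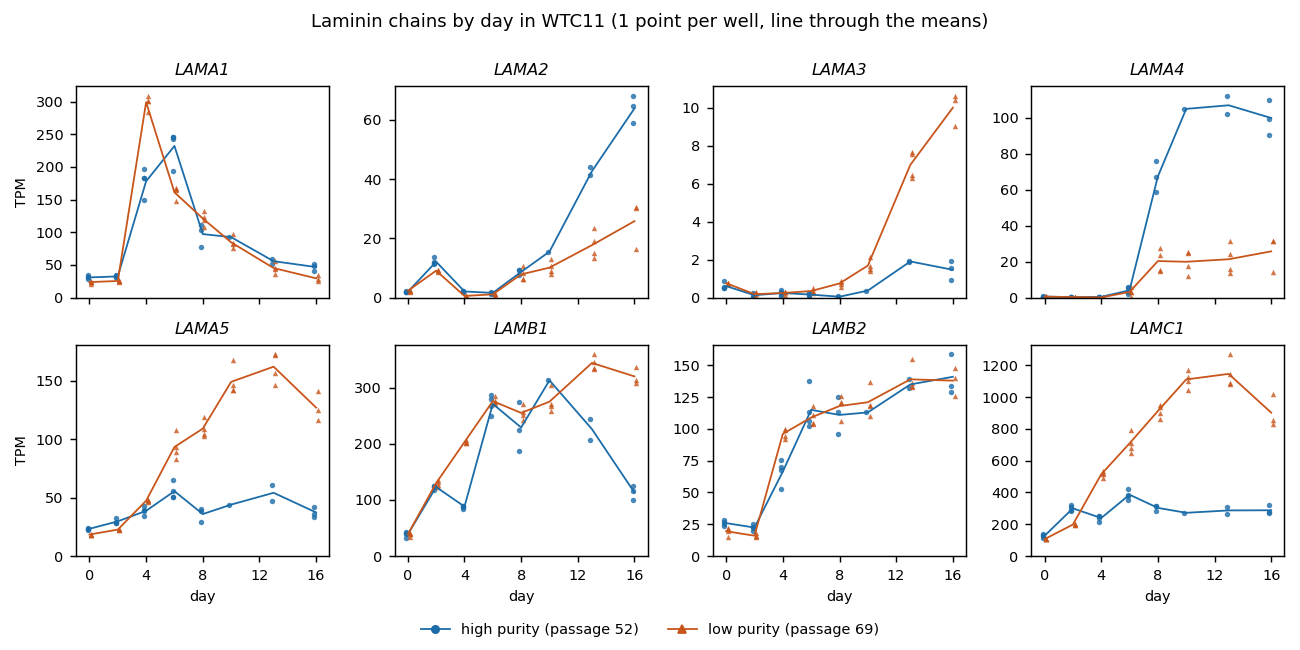
TPM of 8 laminin chains by day in WTC11, 1 point per well, with lines through the means of the high-purity (blue circles) and low-purity (orange triangles) wells. LAMA4 and LAMA2 end higher in the high-purity wells, LAMA3, LAMA5, LAMB1 and LAMC1 end higher in the low-purity wells, and LAMB2 ends at 129 to 159 TPM and 126 to 148 TPM.

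The laminin beta and gamma chains had 1 leading gene each for most of the course. LAMC1, the gamma 1 chain found in most laminins (chr1:183023420-183145592), was 87.8% ± 0.498 and 87.2% ± 0.494 of gamma chain TPM on day 0 and 97.5% ± 0.304 and 98.1% ± 0.0927 on day 16. It was at 115 to 138 TPM in the high-purity wells of day 0 and 105 to 108 TPM in the low-purity wells, and on day 2 at 285 to 319 TPM and 193 to 203 TPM, the high-purity wells being the higher. On day 4 it was at 250, 214, 240 and 251 TPM against 516, 534, 520 and 488 TPM, and on day 16 at 269, 320 and 274 TPM against 1019, 858 and 830 TPM. The low-purity wells lay above all high-purity wells on both later days. The differences were -1.1 ± 0.06 on day 4 (limma, adjusted p = 2.05e-20), -1.35 ± 0.06 on day 8, -1.8 ± 0.07 on day 13 and -1.42 ± 0.07 on day 16. LAMC3 was called on no day.

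LAMB1, the beta 1 chain (chr7:107923799-108003161), was at 32.4 to 42.2 TPM and 34.7 to 40.9 TPM on day 0 and at 118 to 125 TPM and 123 to 136 TPM on day 2, ranges that overlap on both days. On day 4 the high-purity wells had 89.9, 84.5, 90.0 and 87.8 TPM and the low-purity wells 207, 204, 201 and 201 TPM (-1.19 ± 0.06, limma, adjusted p = 3.15e-20). On day 6 they overlapped again, at 250 to 287 TPM and 270 to 285 TPM. By day 16 the values were 100, 125 and 115 TPM against 337, 314 and 308 TPM (-1.27 ± 0.07, adjusted p = 3.17e-19). LAMB2, the beta 2 chain of muscle and vessels, was called on no day, and its share of beta chain TPM on day 16 was 55.1% ± 2.27 in the high-purity wells, where it had passed LAMB1, and 30.1% ± 1.63 in the low-purity wells. LAMB3, an epithelial chain, was called on no day.

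Promoters of 4 genes are shown because 3 of these genes (ITGA8, LAMA5 and LAMC1) ended higher in the low-purity wells and 1 (LAMA2) in the high-purity wells; they were chosen after their values were seen. Each sequence is the 120 bases before the start given by RefSeq for GRCh38.p14, 5′ to 3′ on the gene's strand, and capitals mark the GC box GGGCGG, searched on both strands.
LAMA2: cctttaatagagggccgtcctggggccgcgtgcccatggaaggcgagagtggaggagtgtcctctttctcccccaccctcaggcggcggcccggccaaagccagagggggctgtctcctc
ITGA8: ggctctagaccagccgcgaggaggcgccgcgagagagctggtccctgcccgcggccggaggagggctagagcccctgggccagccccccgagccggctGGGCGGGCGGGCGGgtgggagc
LAMA5: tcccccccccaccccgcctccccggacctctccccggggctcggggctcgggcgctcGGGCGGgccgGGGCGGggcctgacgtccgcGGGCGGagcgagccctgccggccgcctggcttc
LAMC1: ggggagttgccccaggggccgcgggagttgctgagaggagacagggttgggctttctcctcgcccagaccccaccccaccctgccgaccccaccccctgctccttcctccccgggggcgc

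These windows lie at chr6:128883018-128883137 (LAMA2, plus strand), chr10:15719923-15720042 (ITGA8, minus strand), chr20:62367313-62367432 (LAMA5, minus strand) and chr1:183023300-183023419 (LAMC1, plus strand). A stretch just after the start was found in a GENCODE v29 transcript of the same gene for LAMA2, ITGA8 and LAMA5. It was not found for LAMC1. Their GC content was 67.5% in LAMA2, 80.0% in ITGA8, 85.0% in LAMA5 and 73.3% in LAMC1, where the median over the 35116 promoters of the table was 60%. The ITGA8 and LAMA5 windows hold 3 GC boxes each, those of ITGA8 overlapping one another, and the LAMA2 and LAMC1 windows hold none; LAMC1 has one further out, within 250 bases of its start. Over the 250 bases before the start, a GC box was found in 17 of the 33 starts of the 26 members in the table, 51.5%, against 42.6% of all promoters. The GATA core GATAA was in 3 member starts (9.09%, all promoters 20.4%), the TEAD core CATTCC in 4 (12.1%, all 11.9%), LAMA2 among them, and TATAAA in 2 (6.06%, all 10.7%). A match is a run of letters and not a bound site.

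The steps of time show how the order of subunits was reached. From day 0 to day 2, 6 members rose (all genes 9.66%) and 1 fell (7.04%) in the high-purity wells, and 6 rose (11%) and 1 fell (6.87%) in the low-purity wells. LAMA2, ITGA5, ITGA9 and LAMB1 were called up in both. ITGB8 and LAMC1 were called up, at 1.47 and 1.2, and ITGA1 down, at -1.25, in the high-purity wells. ITGB8 went there from 2.69, 3.31, 3.36 and 3.55 TPM to 10.4, 11.4, 12.3 and 9.42 TPM, and ITGA1 from 12.0, 11.9, 13.3 and 11.5 TPM to 4.91, 5.57, 3.46 and 4.94 TPM. In neither gene do the days overlap. ITGA8 and ITGA2B were called up and ITGA2 down, at -1.44, in the low-purity wells. Whether these steps differ between the classes was tested only for days 4 and 16 against day 0.

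From day 2 to day 4, 5 members rose (all genes 6.74%) and 7 fell (6.96%) in the high-purity wells, and 6 rose (8.18%) and 8 fell (8.7%) in the low-purity wells. ITGA8, LAMA1, LAMB2 and ITGB3 were called up in both, LAMB2 by 1.4 and 2.46. LAMB2 went from 21.8, 25.1, 23.0 and 19.8 TPM to 67.4, 52.6, 70.2 and 75.6 TPM in the high-purity wells and from 17.9, 15.7, 14.8 and 15.7 TPM to 91.8, 94.1, 99.7 and 98.8 TPM in the low-purity wells. The low-purity wells began below and ended above the high-purity wells. ITGA4, ITGA6, ITGB5, ITGB8 and LAMA2 were among those called down in both. Without high-purity well 4 of day 4 the rise of ITGB3 in the high-purity wells was 0.98 and not called. From day 4 to day 6, 6 rose (4.53%) and 3 fell (3.44%) in the high-purity wells, among them ITGB3 at 1.85 and ITGA5 at -1.45, and 5 rose (3.87%) and none fell (2.74%) in the low-purity wells. ITGA8 was called down in the first, at -1.23, and up in the second, at 1.12; the second was 0.96 and not called without low-purity well 4 of day 6.

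From day 6 to day 8, 5 members rose (all genes 2.87%) and 2 fell (2.72%) in the high-purity wells, a total of 7 that was 4 without high-purity well 3 of day 6, and 6 rose (2.03%) and 1 fell (1.28%) in the low-purity wells. LAMA4, LAMA2, ITGB3 and ITGA1 were called up in both. Without scaling beyond TPM the high-purity split was 2 up and 2 down, and ITGA1 (0.96) and ITGB3 (0.90) were not called there. The rise of ITGB3 in the high-purity wells was 0.99 and not called without high-purity well 3 of day 6. The fall of LAMA1 there, -1.01, was between -0.94 and -0.98 and not called without high-purity well 2 or 3 of day 6 or well 4 of day 8, or with DESeq2's median-ratio scaling. It was -0.99 and not called without the filter on low values, and likewise with well number as a block. From day 8 to day 16, 7 rose (6.14%) and 2 fell (5.24%) in the high-purity wells, and 11 rose (3.59%) and 2 fell (2.8%) in the low-purity wells. LAMA2, ITGB3, ITGA1 and LAMA3 were called up and ITGA6 down in both. Without scaling beyond TPM the high-purity split was 5 up and 4 down, and ITGA1 was at 0.96 there and not called. LAMA1 was called down, by 1.78, and ITGA3, ITGA11 and LAMC3 up, at 1.69, 1.46 and 1.73, in the low-purity wells.

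Other genes of the pathway were read from 3 lists. Of 22 tested proteins that bind integrin tails or the sites they form, 1 was higher and 2 lower in the high-purity wells on day 4, where 3.62% and 4.22% of all genes were called, and 2 higher and 7 lower on day 16 (5.76% and 7.65%). On day 16 ITGB1BP2, a muscle protein known as melusin, had the highest log2 fold change of the list, 1.36, and PTK2B, a relative of focal adhesion kinase, the lowest, -2.98. The list's median was -0.41 on day 16 (all genes 0.00). Of 16 other ligands and basement membrane partners, 0 were higher and 4 lower on day 4, 4 and 4 on day 8 (all genes 4.66% and 7.5%), and 2 and 6 on day 16, with a day 16 median of -0.75. NPNT, which encodes nephronectin, a ligand of the alpha 8 integrin, had the lowest log2 fold change of that list on day 4 (-3.64) and day 8 (-5.17). On day 16 TNC, which encodes tenascin C, had the lowest, -4.63, and VCAM1, a ligand of alpha 4, the highest, 1.96. Of 8 laminin receptors and partners other than integrins, BCAM, which binds laminins with the alpha 5 chain, was called higher on days 2, 6 and 8 (all genes 2.25%, 3.61% and 4.66%), at 1.31, 1.18 and 1.20, and none was called on day 16.

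The 24 libraries of 3 lines allow the early steps to be compared over 6 differentiations. With edgeR's quasi-likelihood test on counts and differentiation as a block, 8 of 35 tested members rose (all genes 14.8%) and 7 fell (10.8%) from day 0 to day 2 or 3. ITGA5 rose by 3.34 ± 0.48 (log2 ± SE; Benjamini-Hochberg adjusted p = 1.83e-05) and ITGA9 by 3.18 ± 0.49, while ITGA6 fell by 1.75 ± 0.4 (adjusted p = 0.00157). The ITGA6 value was -0.93 without H9 and was then not called. ITGB2, ITGAX, ITGB7 and ITGAL, leukocyte subunits, were called up, at levels of at most 0.613, 0.253, 0.481 and 0.286 TPM in that order. In edgeR the ITGAL value was 0.70 (adjusted p = 0.159) without H9 and 1.16 (adjusted p = 0.0706) without IMR90-4, and not called in either. From day 2 or 3 to day 4 or 5, 0 rose (3.57%) and 7 fell (3.29%), among them ITGA6 at -1.16 (adjusted p = 0.0476) and ITGA4 at -2.57; the count was 12 without H9, 0 without IMR90-4 and 2 without WTC11, and neither gene was called without IMR90-4 or without WTC11. From then to day 6 or 7, 3 rose (2.73%) and 0 fell (0.985%): LAMA4 by 3.52 ± 0.5, ITGB3 by 2.49 ± 0.4 and ITGA10, a collagen-binding subunit, by 1.11. ITGA10 was at no more than 0.364 TPM in any of the 24 libraries. Without IMR90-4 the edgeR value for ITGB3 was 2.39 (adjusted p = 0.123) and not called, and the ITGA10 call was lost without any 1 of the 3 lines.

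ITGA6 was at 62.9 to 73.8 TPM in all 6 cultures on day 0 and then fell at different speeds. On day 2 or 3 the high-purity cultures of H9, IMR90-4 and WTC11 held 5.32, 21.5 and 39.7 TPM and the low-purity cultures 7.07, 28.7 and 61.6 TPM. On day 4 or 5 they held 2.93, 6.42 and 12.6 TPM against 4.6, 12.0 and 36.3 TPM, and on day 6 or 7 5.38, 11.7 and 13.3 TPM against 16.0, 22.1 and 23.7 TPM. At all 3 later stages the low-purity culture was the higher in each line. In the WTC11 wells of the first experiment the high-purity wells were the higher on days 2 and 4. That experiment used another library kit and another high-purity passage, while low-purity WTC11 is at passage 69 in both; the labels do not say whether it is the same differentiation.

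ITGA8 held 0 reads in all 6 cultures on day 0. On day 2 or 3 the high-purity cultures were at 29.4, 16.9 and 0.169 TPM (H9, IMR90-4, WTC11), at least 1858-fold, at least 943-fold and at least 7.31-fold higher than a floor of 3 reads on day 0. The low-purity cultures were at 6.04, 11.3 and 0.0145 TPM, at least 258-fold and at least 586-fold higher in H9 and IMR90-4, while the WTC11 culture held 3 reads and gives no bound. WTC11, sampled on day 2 and not day 3, reached 4.14 and 4.01 TPM by day 4. ITGA5 was at 130, 180 and 35.6 TPM against 22.7, 105 and 14.1 TPM on day 2 or 3, and ITGA9 at 48.9, 29.1 and 5.35 TPM against 20.1, 18.9 and 1.26 TPM. For both genes the high-purity culture was above its low-purity partner in all 3 lines. In the WTC11 wells of the first experiment the order on day 2 was the other way for both, ITGA9 at -1.23 and called, ITGA5 at -0.12 and not called.

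**Figure D5:**
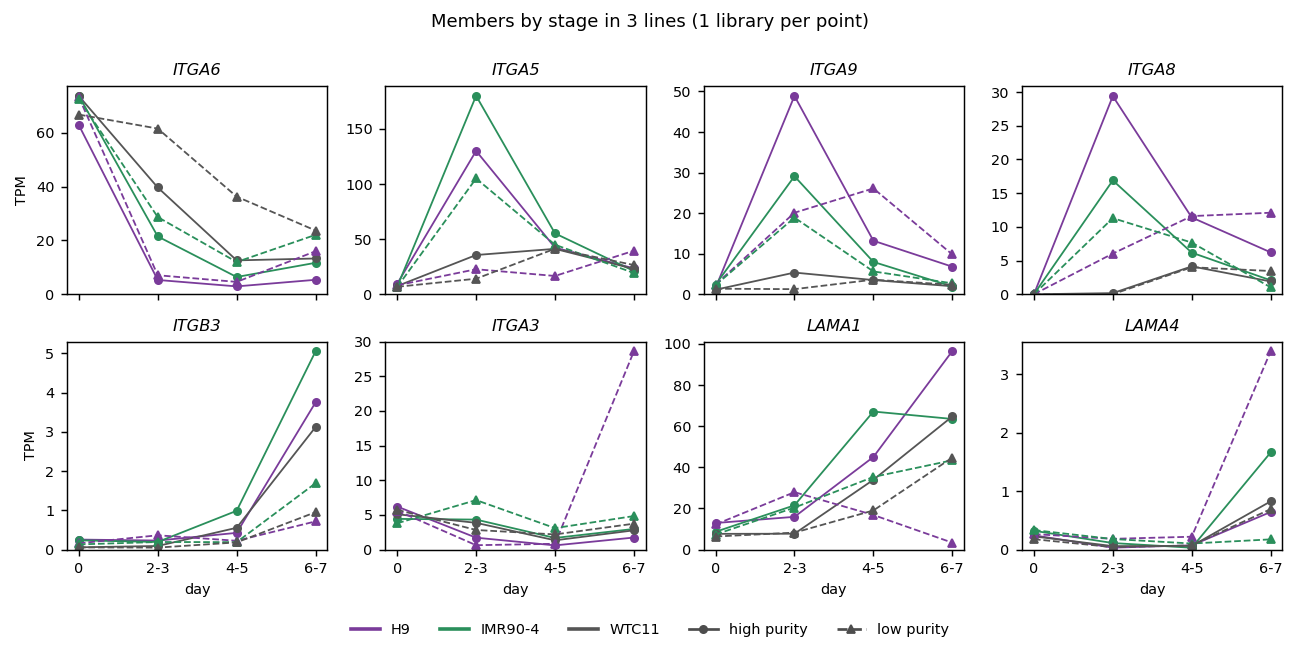
TPM of 8 members by stage in 3 lines (colours), with solid lines and circles for high-purity and dashed lines and triangles for low-purity cultures, 1 library per point. ITGA6 falls from 62.9 to 73.8 TPM on day 0 in all 6 cultures, and at day 6 or 7 ITGB3 is higher in the high-purity culture of each line.

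No member passed the test for high minus low purity over the 3 lines at any stage, and no gene of the 24810 tested did: 0% were called on day 0, 0% on day 2 or 3, 0% on day 4 or 5 and 0% on day 6 or 7. With unadjusted p under 0.05 there were 0, 6, 5 and 9 of 35 members at the 4 stages, against 362, 1921, 1828 and 2916 of all genes, and DESeq2 called 0, 3, 2 and 4 members. Those were ITGA5, ITGA8 and ITGA9 on day 2 or 3, ITGA6 and ITGB3 on day 4 or 5, and ITGA4, ITGA6, ITGB3 and LAMA1 on day 6 or 7. Without H9, edgeR called ITGA6 and ITGB3 on day 4 or 5. The shares of all genes called by DESeq2 or without H9 were not counted, so these calls do not show that members stood out. ITGB3 on day 6 or 7 was at 3.75, 5.05 and 3.12 TPM in the high-purity cultures and 0.717, 1.69 and 0.952 TPM in the low-purity cultures, with no overlap (1.88 ± 0.31, edgeR, adjusted p = 0.163). ITGA6 at the same stage differed by -1.11 ± 0.19 (adjusted p = 0.163), and ITGA5 on day 2 or 3 by 1.49 ± 0.34 (adjusted p = 0.394). Of 23 members at 1 TPM or more in 3 libraries, 9 were higher and 1 lower in the high-purity culture of all 3 lines on day 2 or 3 (all genes 19.3% and 11.5%), and 3 were higher and 6 lower on day 6 or 7 (14.8% and 17.4%). The 3 were ITGA2B, ITGB3 and LAMA1, and the 6 were ITGA3, ITGA4, ITGA6, ITGA9, LAMA5 and LAMC3. These counts use direction alone, whatever the size. On the log2(TPM + 1) scale LAMC3 differed by only -0.03 in H9 and -0.01 in WTC11, and ITGA4 and LAMA5 by -0.04 in IMR90-4. ITGA6 differed by -1.41, -0.87 and -0.79 (H9, IMR90-4, WTC11).

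The low-purity H9 culture stood apart on day 7. It held 28.6 TPM of ITGA3, against 1.73 to 4.83 TPM in the other 5 cultures, and 24.4 TPM of ITGB8 against 1.66 to 3.5 TPM. LAMA1 was at 3.34 TPM there and at 43.4 to 96.5 TPM in the others, and LAMA5 made up 59.0% of its laminin alpha TPM against 7.42% to 14.2%. Fibroblast or stromal markers summed to 1693 TPM in that culture and 442 TPM in the high-purity H9 culture, cardiomyocyte markers to 307 and 1626 TPM, and epicardial markers to 73.3 and 14.5 TPM; their part in these values was not tested. ITGA8 was at 12.1 TPM there and at 6.22 TPM in the high-purity H9 culture.

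Levels summed over the 4 stages were compared between lines, with 2 differentiations per line and 2 residual degrees of freedom. H9 had 2 members higher than WTC11 (all genes 0.635%) and 0 lower (0.936%), ITGA9 by 2.67 ± 0.14 (log2 ± SE; edgeR, adjusted p = 0.00615) and ITGA8 by 2.3 ± 0.22 (adjusted p = 0.0287). IMR90-4 had 1 higher than WTC11 (0.431%), ITGA9 by 1.91 ± 0.13 (adjusted p = 0.018), and 0 lower (0.357%). Between H9 and IMR90-4 there were 0 higher (0.227%) and 0 lower (0.323%), with 5 members at an unadjusted p under 0.05. WTC11 was sampled a day earlier than the other lines at each stage after day 0, so line and day cannot be told apart here. Each of these calls was lost without either WTC11 differentiation, and the IMR90-4 call also without either IMR90-4 differentiation. Without the high-purity H9 differentiation the counts were 9 for H9 against WTC11 and 5 for H9 against IMR90-4, with the shares of all genes not counted.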

How the data were processed

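RNA of 80 libraries was measured. Per the submitters' processing notes, the authors' tools included STAR 2.5.3a and featureCounts 2.0.3, with hg38. The authors deposited TPM and whole-number counts of reads per gene for each experiment; which setting of strand the counting used is not given in the sources used here. In the WTC11 well experiment the names of the deposited count table did not match the TPM table (0 of 56 columns matched under their own name, 50 under another), so its TPM were used. Which table carries the right names is not given in the sources used here, and all WTC11 well results rest on the names of the TPM table. Under those names pluripotency markers were highest on day 0 in both classes. In the other, all 24 columns matched and counts were used; 36 broken lines in that table left out 6 genes.

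The gene families and the pathway and marker lists were chosen with earlier results of these data known; within the families the symbol decided. Any member could be named; values in every well, or their range, are given for the 3 called members with the highest and lowest log2 fold change per comparison among those with a mean of at least 5 TPM, for the leading member of each family, and for ITGA6, ITGA5, ITGAV, ITGB1, LAMA1, LAMA5, LAMB1 and LAMC1. From the pathway lists, genes with the highest or lowest log2 fold change were named.

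TPM were scaled by edgeR 4.0.16 TMM factors, log2-transformed after adding 1, and fitted by limma 3.58.1 (R 4.3.3) with a trended prior, over 16 purity-by-day means with 40 residual degrees of freedom. Genes at 1 TPM or more in at least 3 libraries were tested. Counts were tested by edgeR's quasi-likelihood fit over the libraries of a comparison: purity at each stage (8 residual degrees of freedom), steps with differentiation as a block (15), and lines on counts summed per differentiation (2). The SE printed with edgeR values was derived from the test: the size of the log2 fold change divided by the square root of its F statistic. Each p was Benjamini-Hochberg adjusted over all genes tested; a call needed an adjusted p under 0.05 and a log2 fold change of at least 1 in size. On simulated data, a log2 change of 2 was recovered for 97% of changed genes by limma on day 4 (24949 genes), 91% by edgeR for day 0 to 2 or 3 (23064 genes) and 83% for purity on day 6 or 7 (23310 genes). Changes were planted only in genes above a minimum level and had the same size in every line. Recovery for lower genes, or for changes that differ between lines, was not simulated. These shares therefore do not show that an uncalled gene is unchanged.

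Same-numbered wells of the 2 classes did not deviate together (correlations -0.018 to 0.032), so well numbers do not pair them. In the 24 libraries the labels' lines pair the cultures, and their correlations ran from 0.227 to 0.69. Reads behind the TPM were recovered for 37194 genes with a solved length, with 100% of values whole within 0.05, and served for depths, floors and an edgeR alternative. Other scalings, no filter, a pseudocount of 0.1, DESeq2 1.42.0, no block and leaving out each library were also run. Gene coordinates are from RefSeq (GRCh38), overlaps from GENCODE v29 (GRCh38) and promoters from RefSeq (GRCh38.p14). The results of 1 member are not reported here by name; counts include it. No explanation of a difference was tested.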

Additional observations from a re-analysis of the deposited data

Results flagged for a closer look

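In groups of 4 wells, 12 of 194 member levels had 1 well far from the other 3, where chance flags about 1 in 20 groups. In the high-purity wells these were ITGA3 on day 4 (13.6 TPM in well 3, others 9.23 to 9.59) and, both in well 4 of day 6, ITGAV (160 TPM, others 219 to 231) and LAMA1 (193 TPM, others 242 to 246). In the low-purity wells, well 4 was the highest for ITGA3 on day 4 (14.7 TPM, others 12.4 to 12.7), for ITGA8 on day 6 (120 TPM, others 76.4 to 82.4) and for ITGA6 on day 10 (104 TPM, others 83.3 to 86.8), and the lowest for LAMA1 on day 6 (147 TPM, others 165 to 167). Well 1 was the highest for LAMA5 on day 10 (168 TPM, others 142 to 146) and, on day 13, for ITGA11 (43.4 TPM, others 32.1 to 33.6), ITGA3 (283 TPM, others 234 to 236) and ITGB8 (27.8 TPM, others 18.3 to 19.8). LAMB2 stood at 155 TPM in well 2 of day 13, with the others at 133 to 136.

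The change since day 0 differed between the classes of WTC11 by the limma test of the difference itself, high minus low on the log2 scale. From day 0 to day 4 the values included 1.17 for LAMA2 and 1.14 for ITGA5, and -1.29 for LAMC1, -1.18 for ITGA1, -1.13 for LAMB1, -1.08 for ITGAV and -1.05 for LAMA1. From day 0 to day 16 they were 2.25 for LAMA4, 1.74 for LAMA2 and 1.28 for ITGA7. They were -5.07 for ITGA8, -3.28 for ITGA3, -3.11 for ITGA11, -2.92 for ITGB8, -2.87 for ITGA1, -2.27 for ITGA4, -1.49 for ITGA5 and -1.03 for ITGB1 among the integrins. Among the laminins they were -1.91 for LAMA3, -1.8 for LAMA5, -1.62 for LAMC1, -1.23 for LAMC3 and -1.21 for LAMB1. ITGAD (1.82) and ITGB6 (1.08) also passed, with day 0 levels at or near 0 reads, so these values depend on the pseudocount. ITGB6 was at 0.90 without scaling beyond TPM. Leaving out high-purity well 2, low-purity well 1 or low-purity well 3 of day 16 gave 0.99 to 1.00. None of these was called, nor was ITGB6 by edgeR on recovered reads.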

How the results depend on the processing

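Of 173 member calls in the WTC11 wells, 21 were lost on leaving out a library, with log2 sizes of at least 0.84 after the loss, and of 28 calls in the 24 libraries 16 were lost. Under another setting at least 21 were lost. Calls of genes that then failed the filter, such as ITGAX without the replicate block, are not in these counts of lost calls. A pseudocount of 0.1 gave 1 call on day 0, 12 on day 4, 13 and 11 from day 0 to day 2 (high, low purity), 8 from day 4 to day 6 in low purity and 13 for the change to day 4. edgeR on recovered reads gave 2 on day 0, 13 on day 4, 11 on day 6, 14 and 13 from day 0 to day 2, 8 from day 4 to day 6 and 11 from day 6 to day 8 in low purity, and turned ITGAD's change to day 16 to -1.31 (adjusted p = 0.482). Without scaling beyond TPM the step from day 6 to day 8 in high purity gave 4; that setting moved the median of all genes by -0.179 on day 8, -0.133 on day 13 and -0.118 on day 16. DESeq2 gave 3, 2 and 4 for purity over 3 lines at the later stages and 3 for IMR90-4 against WTC11, where no filter gave 2. Shares of all genes called were not counted for these settings or for fits with a library left out.

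Leaving out 1 library at a time gave these ranges of calls: 0 to 0 on day 0, 3 to 3 on day 2, 6 to 9 on day 4, 5 to 7 on day 6, 9 to 12 on day 8, 13 to 15 on day 13, 16 to 18 on day 16, and 4 to 7 from day 6 to day 8 in high purity. For the 24 libraries, leaving out a line gave 0 to 2 for purity on day 4 or 5, 13 to 15, 0 to 12 and 1 to 6 for the 3 steps, and leaving out a differentiation gave 0 to 9 for H9 against WTC11, 0 to 0 for IMR90-4 against WTC11 and 0 to 5 for H9 against IMR90-4.

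With well number as a replicate block, calls per day were 0, 3, 6, 7, 11, 14 and 17; the numbers do not pair the wells. Without the replicate block of differentiation the 3 steps gave 12, 5 and 2 calls. The cause of each of these changes was not tested. Depth limits the low members: 3 reads were the floor for a gene at 0.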
